A study of Caenorhabditis elegans with 2 samples.

Results

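Homeobox genes encode transcription factors that share a DNA-binding homeodomain. The genes examined here were the 79 protein-coding nuclear genes of Caenorhabditis elegans, of 19973 in all, that were chosen by name: those named ceh-, apart from 1 that is not reported here, and lin-39, mab-5, egl-5, php-3, nob-1, vab-7, pal-1, unc-4, unc-30, unc-42, unc-86, ttx-3, lim-4, lim-6, mec-3, lin-11 and pax-3. The data were lists of chromatin regions recovered with FKH-6, a forkhead transcription factor needed for development of the somatic gonad, by chromatin immunoprecipitation with sequencing (ChIP-seq). The chromatin came from whole hermaphrodite late embryos of strain OP78, genotype unc-119(ed3) III; wgIs78, collected 5.5 hours after the eggs were released by bleaching. These worms stably carry a transgene for FKH-6 with GFP and FLAG at its C-terminus, and an antibody against GFP was used. There was 1 group of 2 biological replicates, and no untagged or control library was analysed here. Membership rests on gene names, since protein sequences were not used here. No second condition was analysed here, so nothing below is a test of one. In whole embryos a region occupied in few cells and a region weakly occupied in many cannot be told apart.

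Homeodomain proteins commonly bind short AT-rich sites and act as selectors of regional, lineage and cell identity. In worms the Hox members pattern the anterior-posterior axis, LIM, POU and paired-like members specify neuron types, and PBC members act as partners of Hox proteins. Many of them are expressed in the embryo, some in single lineages.

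Regions came in 4 lists on the ce11 genome build. Calling on the 2 replicates combined had given the pooled list of 26164 regions. Replicate 1 alone gave 19624 and replicate 2 gave 26209. The reproducible list held the 767 regions of the pooled list that passed the authors' reproducibility threshold, 746 of them nuclear. The other lists are permissive: only 1098 pooled regions reached 2 on the −log10 q scale, as did 0 regions of replicate 1 and 1074 of replicate 2. The highest value was 1.86 in replicate 1, 2.48 in replicate 2 and 2.19 in the pooled list. The 0 of replicate 1 therefore does not show that its regions were weaker. The signal of a region is the authors' own value on an unstated scale, so it ranks regions within a list only. Reproducible regions had signals of 89.1 and up. A region counted for a gene when its summit lay inside the gene or within 2000 bp of the gene's 5' end, and for 4 regions that held for 2 homeobox genes. Without read counts, the depth behind each region is unknown.

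Only ceh-43 and ceh-39 had a reproducible region, 2 of the 79 or 2.53%, against 4.8% of all protein-coding nuclear genes. The reproducible region of ceh-43 (WBGene00000463, chromosome III, 4446638 to 4449943, minus strand) ran from 4450670 to 4451129, with its summit at 4450900, upstream of the gene. The reproducible region of ceh-39 (WBGene00000460, chromosome X, 1853874 to 1856172, minus strand) ran from 1856157 to 1856616, with its summit at 1856387. The 201 bases centred on these summits are shown because they carry the reproducible signal of the family. They are given on the plus strand of WBcel235 (ce11), from chrIII:4450800-4451000 at ceh-43 and chrX:1856287-1856487 at ceh-39. Capitals mark GGGCGG, the repeat GAGAGA and the forkhead motif RYAAAYA, where R is A or G and Y is C or T, on either strand.
ceh-43: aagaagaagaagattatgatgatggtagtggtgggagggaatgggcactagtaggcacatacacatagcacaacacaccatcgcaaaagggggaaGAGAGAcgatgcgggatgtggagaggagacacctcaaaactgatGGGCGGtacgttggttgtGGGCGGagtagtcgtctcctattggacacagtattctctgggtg
ceh-39: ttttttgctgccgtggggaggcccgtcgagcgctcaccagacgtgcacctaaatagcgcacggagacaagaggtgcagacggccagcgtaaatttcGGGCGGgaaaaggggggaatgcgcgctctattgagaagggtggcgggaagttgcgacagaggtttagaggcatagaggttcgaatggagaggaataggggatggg
The ceh-43 window held 2 copies of GGGCGG and 1 of GAGAGA, and the ceh-39 window held 1 copy of GGGCGG. Neither window held RYAAAYA. The GC content was 50.7% in the ceh-43 window and 57.7% in the ceh-39 window.

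The family was not rich in reproducible regions. The 95% Wilson interval of its 2.53%, for counting error only, ran from 0.697 to 8.77%, and 959 of all 19973 genes made up the 4.8%. Among pooled regions with a −log10 q-value from 2 up, 2 genes counted, again ceh-43 and ceh-39, against 6.67% of all genes. The share of homeobox genes was below the background in both, and the upper end of its interval lay above the background.

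In the permissive lists most homeobox genes had a region, as most genes did. A pooled region was present at 62 of 79 homeobox genes, or 78.5% (95% Wilson interval 68.2 to 86.1), against 65.6% of all genes. Replicate 1 had a region at 55 of them, or 69.6%, against 59.9%, and replicate 2 at 64, or 81.01%, against 66.5%. A pooled region with a summit of each replicate within 100 bp was present at 34 genes, or 43.04% (32.7 to 54.03), against 29.7% of all genes. All these shares were above the background, unlike that of the reproducible list. Homeobox genes are also longer targets, with a median of 5.25 kb in which a summit could count, against 4.03 kb for all genes. Per kb they had 0.323 pooled regions, 0.224 regions of replicate 1 and 0.293 regions of replicate 2, and all genes had 0.275, 0.209 and 0.273. Split by target length, the share with a pooled region was 68.4% against 58.4% of all genes below 5 kb, 86.2% against 75.4% from 5 to 8 kb, and 91.7% against 89.9% from 8 kb up. The excess was not general: from 8 kb up, replicate 1 had a region at 75% of homeobox genes against 87.6% of all genes, and per kb the values were 0.298 against 0.303 in the pooled list and 0.238 against 0.303 in replicate 2. Below 5 kb, replicate 1 had 0.188 regions per kb against 0.197. In the reproducible list the share below 5 kb was 2.63% against 3.64% of all genes. It was 3.45% against 5.60% from 5 to 8 kb, and 0 of 12 against 10.02% from 8 kb up. Reproducible regions numbered 0.00422 per kb at homeobox genes and 0.00896 at all genes.

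**Figure D1:**
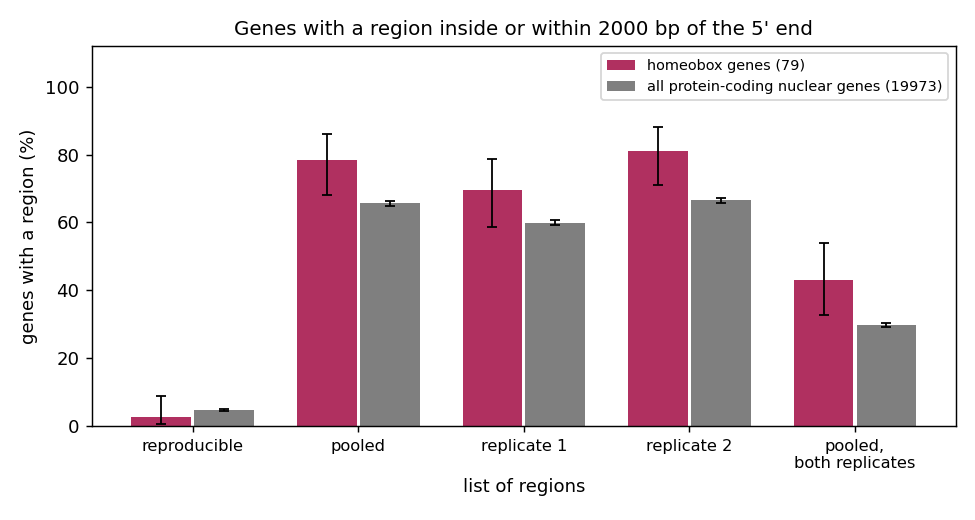
Percentage of genes with a region in each list (vertical axis) for the 79 homeobox genes and for all 19973 protein-coding nuclear genes; error bars are 95% Wilson intervals for counting error. Homeobox genes lay at 2.53% against 4.8% in the reproducible list and at 78.5% against 65.6% in the pooled list.

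The region upstream of ceh-43 was the strongest at any of the 79 genes. ceh-43 encodes a Distal-less homologue that acts in the anterior hypodermis and in dopaminergic neurons. Its summit lay 957 bp upstream of the 5' end, with a pooled signal of 109, rank 448 of 26164. Replicate 1 had a summit within 100 bp at rank 315 of 19624, and replicate 2 had one at rank 836 of 26209. It stood 1.61% from the top of replicate 1's list and 3.19% from the top of replicate 2's. The gene had 4 further pooled regions, at 1212 bp upstream with a signal of 59.5 and at 171, 379 and 1561 bp inside it with signals of 31.9, 58.04 and 56.8. Of the 5 regions, 4 had a summit in both replicates, more than at any other of the 79 genes. Starts of non-coding genes lay nearer than that of ceh-43 to the strongest summit: the ncRNA genes C28A5.8 at 386 bp and C28A5.11 at 588 bp, and the tRNA gene WBGene00014267 at 504 bp. Which of these genes the region belongs to was not tested.

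The region of ceh-39 was just above the threshold. ceh-39 encodes a ONECUT homeodomain protein and is one of the X-linked signal elements that count X chromosomes in worm sex determination. The summit was 215 bp upstream of its 5' end, with a pooled signal of 90.2, rank 748, near the lowest signal of the reproducible list. It was rank 907 in replicate 1 and rank 907 in replicate 2. The start of the ncRNA gene T26C11.10, on the other strand, lay 86 bp from the summit. A stronger reproducible region lay just outside the limit, 2662 bp upstream of ceh-39, with a signal of 183, rank 135 in the pooled list. That summit was 15 bp from the start of the tRNA gene WBGene00023152, and it was the only reproducible region between 2000 and 3000 bp from any of the 79 genes.

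ceh-39 lies in a cluster with its ONECUT relatives ceh-21 and ceh-41. At ceh-21 there were 7 pooled regions, the joint highest number among the 79 genes, and 0 of them had summits of both replicates within 100 bp. The strongest, 247 bp inside the gene in coding sequence, had a signal of 65.9, rank 1991. It was rank 1640 in replicate 2 and had no match within 100 bp in replicate 1. ceh-41 had 1 pooled region, with a signal of 33.4, which it shared with ceh-21. By the 100 bp limit, replicates thus agreed at ceh-39 alone of the 3 neighbours. At ceh-21, replicate 1 had a summit 357 bp inside the gene, rank 7861, only just beyond that limit from the strongest pooled summit.

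**Figure D2:**
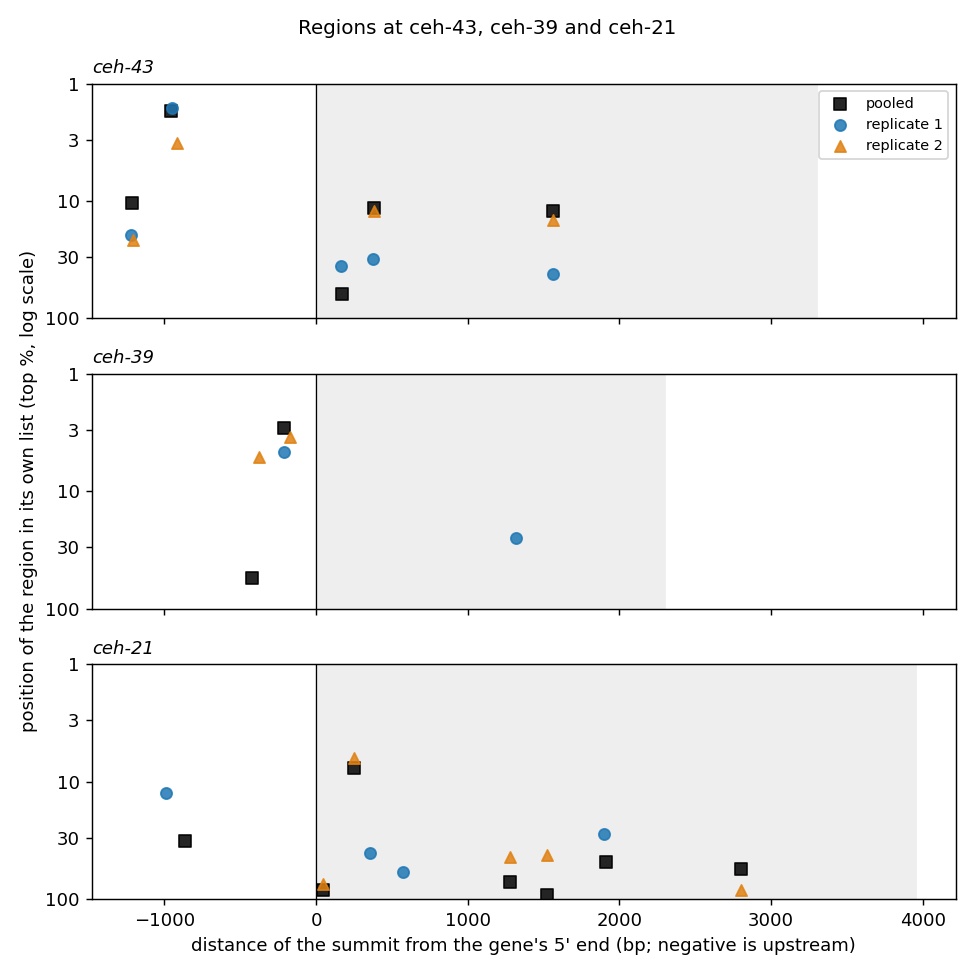
Regions at ceh-43, ceh-39 and ceh-21 by distance of the summit from the 5' end (horizontal axis, bp) and by position in their own list (vertical axis, top percent, log scale, strongest at the top); squares are pooled regions, circles replicate 1, triangles replicate 2, and grey marks the gene. The regions near −957 bp at ceh-43 and −215 bp at ceh-39 sat in the top 5% of all 3 lists.

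Each of the 6 Hox genes had regions in the pooled list and in both replicates, and none had a reproducible one. Over all genes the shares were 65.6% in the pooled list, 59.9% in replicate 1, 66.5% in replicate 2 and 4.8% in the reproducible list. The Hox genes held 20 pooled regions, or 0.480 per kb. ceh-13, the labial homologue and the anterior Hox gene, had the strongest, 824 bp upstream with a signal of 78.1, rank 1165 in the pooled list, 1461 in replicate 1 and 1362 in replicate 2. It stood 4.45% from the top of the pooled list, 7.44% in replicate 1 and 5.20% in replicate 2, and the nearest non-coding start was 9681 bp away. egl-5, a posterior gene of the Abdominal-B type, had a signal of 69.98 at 1960 bp upstream, just inside the distance limit, with rank 1285 in replicate 1 and 3200 in replicate 2. The ncRNA gene C08C3.11 started 1169 bp from that summit, nearer than egl-5 itself. nob-1, a posterior gene needed for embryonic tail development, had 5 pooled regions. Its leading one lay in an intron, 736 bp from the 5' end, with a signal of 68.4, rank 1824 in replicate 1 and 3807 in replicate 2. Its neighbour php-3 had 1 region, 225 bp upstream, with a signal of 54.7, where the replicates differed widely, at rank 2644 in replicate 1 and 15543 in replicate 2. mab-5, which directs posterior neuroblast migration, had 6 regions, led by one 1022 bp upstream with a signal of 53.7 and ranks of 8072 in replicate 1 and 4843 in replicate 2. lin-39, the mid-body Hox gene of vulval development, was the weakest. Its 4 regions had signals from 25.1 to 32.2, and 0 of them had a summit in both replicates.

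GC-rich letters were frequent in the Hox regions. The letters GGGCGG, on either strand within 50 bp of the summit, were in 9 of the 20 Hox regions, or 45%. Over all homeobox genes they were in 20 of 149 distinct pooled regions, or 13.4%, over all nuclear pooled regions in 4.09%, and over nuclear reproducible regions in 9.38%. Cutting the same Hox genes and flanks into consecutive windows of the same length, 17 of 391 held GGGCGG, or 4.35%, against 1.61% for all genes. The 9 Hox regions were 3 at mab-5, 2 each at nob-1 and lin-39, and 1 each at egl-5 and ceh-13 and those at 1 gene are not independent examples, since they share that gene. This grouping was noticed after the values were seen and has no test. For each of these 5 genes the strongest such region that touches no untranslated exon is shown, with the summit 864 bp upstream at nob-1 and in an intron at lin-39, as 101 bases on the plus strand of chromosome III of WBcel235. They are chrIII:7554786-7554886 at ceh-13, chrIII:7529228-7529328 at lin-39, chrIII:7784426-7784526 at mab-5, chrIII:7812364-7812464 at egl-5 and chrIII:12085130-12085230 at nob-1, with capitals as before.
ceh-13: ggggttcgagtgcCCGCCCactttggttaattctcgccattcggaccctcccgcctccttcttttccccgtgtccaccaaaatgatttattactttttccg
lin-39: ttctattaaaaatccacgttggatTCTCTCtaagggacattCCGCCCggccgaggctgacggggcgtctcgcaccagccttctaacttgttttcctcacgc
mab-5: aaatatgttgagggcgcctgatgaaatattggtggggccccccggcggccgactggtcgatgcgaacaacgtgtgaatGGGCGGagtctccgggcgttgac
egl-5: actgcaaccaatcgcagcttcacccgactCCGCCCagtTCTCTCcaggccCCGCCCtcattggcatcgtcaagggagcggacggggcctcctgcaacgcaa
nob-1: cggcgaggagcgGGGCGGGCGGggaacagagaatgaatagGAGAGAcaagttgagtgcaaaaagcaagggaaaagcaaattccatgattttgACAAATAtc
In the egl-5 window 2 copies lay close together around a GAGAGA on the minus strand. In the nob-1 window 2 overlapping copies lay together, and that window was the only one of those shown with RYAAAYA. The windows ranged in GC content from 48.5% at nob-1 to 64.4% at egl-5. Their pooled ranks ran from 1165 at ceh-13 to 15785 at lin-39, so the letters were not limited to the strong regions. The region shown at nob-1 was rank 1561 in replicate 1 and had no summit of replicate 2 within 100 bp. The region shown at lin-39 had none of replicate 1.

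The other motifs were searched in the same windows. RYAAAYA was in 9.40% of the homeobox regions and in 14.4% of all nuclear pooled regions. Upstream of the 5' ends it was in 2 of 55 homeobox regions, or 3.64%, and in 16.3% of the regions upstream of any protein-coding gene. Inside the genes the shares were close, at 11 of 96 homeobox regions, or 11.5%, and 12.6% of the regions inside any protein-coding gene. The stricter forkhead form GTAAACA was in 0 of 149, which allows up to 2.01%, and in 1.03% of all. TAAT, a core of many homeodomain sites, was in 53.02% and in 49.2%, and GAGAGA was in 16.1% and in 10.8%. The median GC content was 43.6% in homeobox regions and 42.6% in all. A match is a match of letters and shows no binding by any factor.

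Among the 17 other genes of the ANTP class, which includes the NK-like and Distal-less-like factors, 12 had a pooled region, against 65.6% of all genes, and 9 had one with summits of both replicates, against 29.7%. ceh-2, an EMX homologue of pharyngeal neurons, came next in strength to ceh-39. Its summit, 768 bp upstream, had a signal of 78.1, rank 1163 in the pooled list, 1328 in replicate 1 and 2277 in replicate 2. That summit was 17 bp from the start of the tRNA gene WBGene00022946. ceh-30, a BarH-type gene that keeps the male CEM neurons alive, had a signal of 72.2 at 15 bp inside the gene. It was rank 864 in replicate 2 and had no match within 100 bp in replicate 1, and the ncRNA gene C33D12.13 started 40 bp away. A weaker pooled region of ceh-30, 214 bp inside the gene with a signal of 33.2, had summits of both replicates. Its ranks were 7620 in replicate 1 and 3841 in replicate 2. ceh-27 had a signal of 68.3 at 42 bp upstream, with rank 4536 in replicate 1 and 1497 in replicate 2, and the start of the ncRNA gene F46F3.22 was 67 bp away. vab-7, the even-skipped homologue of posterior patterning, had 7 pooled regions with signals from 25.005 to 50.9. pal-1, the caudal homologue that specifies posterior blastomere fates, had 5 with signals from 34.4 to 47.4. ceh-51, which acts in early mesoderm, had a leading signal of 49.1, and ceh-16, the engrailed homologue of seam cells, one of 43.8. ceh-9 had a leading signal of 54.6, ceh-12 of 42.01, ceh-31, the close relative and neighbour of ceh-30, of 41.96, and ceh-19 of 27.1. ceh-1, ceh-5, ceh-23, ceh-24 and ceh-28 had no pooled region.

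The paired-like and Pax genes had a pooled region at 9 of 11, against 65.6% of all genes, and a region with both replicates at 4, against 29.7%. ceh-36, an OTX-type gene of sensory neurons, led with a signal of 72.04 at 971 bp inside the gene, in a 5' UTR exon. It was rank 1570 in replicate 2 and only rank 6339 in replicate 1. unc-30, which specifies GABAergic motor neurons, had a leading signal of 50.6, ceh-45 of 49.1, pax-3 of 46.3, ceh-37 of 44.4 and unc-42 of 38.9. ceh-8, ceh-10 and unc-4 were near the bottom of the list, with signals from 26.2 to 27.2. ceh-17 and ceh-53 had no region in any list.

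The leading signals of the LIM genes ran from 31.6 to 51.4 and those of the POU genes from 25.4 to 52.2, on both sides of the all-gene median of 41.97. Of 6 LIM genes, 5 had a pooled region, against 65.6% of all genes, led by ceh-14 at 806 bp inside the gene with a signal of 51.4 and ranks of 10733 in replicate 1 and 3869 in replicate 2. It was the only LIM gene with a region found in both replicates. lin-11 had a leading signal of 45.5, lim-4 of 41.1, ttx-3, which specifies the AIY interneuron, of 38.2 and lim-6 of 31.6. mec-3, the touch neuron selector, had no pooled region and 1 region in replicate 1. The POU gene unc-86, a partner of mec-3 in touch neurons, had a signal of 52.2 at 66 bp upstream. It was rank 7734 in replicate 2, and none of the gene's 2 regions in replicate 1 had a summit within 100 bp. The ncRNA gene C30A5.11 started 56 bp from that summit. ceh-18, which acts in the gonadal sheath cells, had a signal of 42.1 at 272 bp upstream. Its ranks were 18712 in replicate 1 and 4748 in replicate 2, and the ncRNA gene ZC64.8 started 56 bp from the summit. ceh-6 had a signal of 25.4.

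Leading signals were below the all-gene median at the sine oculis-type genes and above it at both PBC genes with a region. The sine oculis homologues ceh-32, ceh-34, which specifies pharyngeal neurons, and ceh-33 had leading signals of 39.4, 38.3 and 35.1, all upstream of their genes. The PBC gene ceh-20, the extradenticle homologue, had a signal of 49.8 at 709 bp upstream, with rank 1753 in replicate 1 and 23216 in replicate 2, a wide difference. ceh-40 had a leading signal of 47.0 with no match in replicate 2, and ceh-60 had no region in any list. Among the CUT genes outside the X cluster, ceh-38 had a leading signal of 49.99, ceh-49 of 27.6, and ceh-48 had no pooled region.

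The 24 ceh- genes not placed in a class had 0.225 pooled regions per kb, against 0.275 for all genes. A pooled region was present at 17 of them, against 65.6% of all genes, and one with both replicates at 9, against 29.7%. ceh-74 had a signal of 68.6 at 210 bp upstream, with ranks of 3853 and 1853 in replicates 1 and 2, and ceh-88 a signal of 67.1, with ranks of 1093 and 3258. The ceh-88 summit lay in a 3' UTR, 1930 bp from its 5' end. The protein-coding gene C49C3.6 started nearer, 409 bp from that summit. The leading signal was 60.7 at ceh-90, 59.6 at ceh-58 and 59.5 at ceh-100, and at the other 12 it lay between 25.2 at ceh-57 and 50.7 at ceh-86. The ceh-100 summit was 896 bp upstream of that gene, and the protein-coding gene lips-15 started nearer, 190 bp from it. The replicates were nearer each other at ceh-90, with ranks of 2674 and 2060, than at ceh-100, with ranks of 18237 and 1458. The leading region of ceh-58 was rank 1861 in replicate 2 and had no match within 100 bp in replicate 1. A weaker region of ceh-58, with a signal of 49.4, had summits of both replicates.

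**Figure D3:**
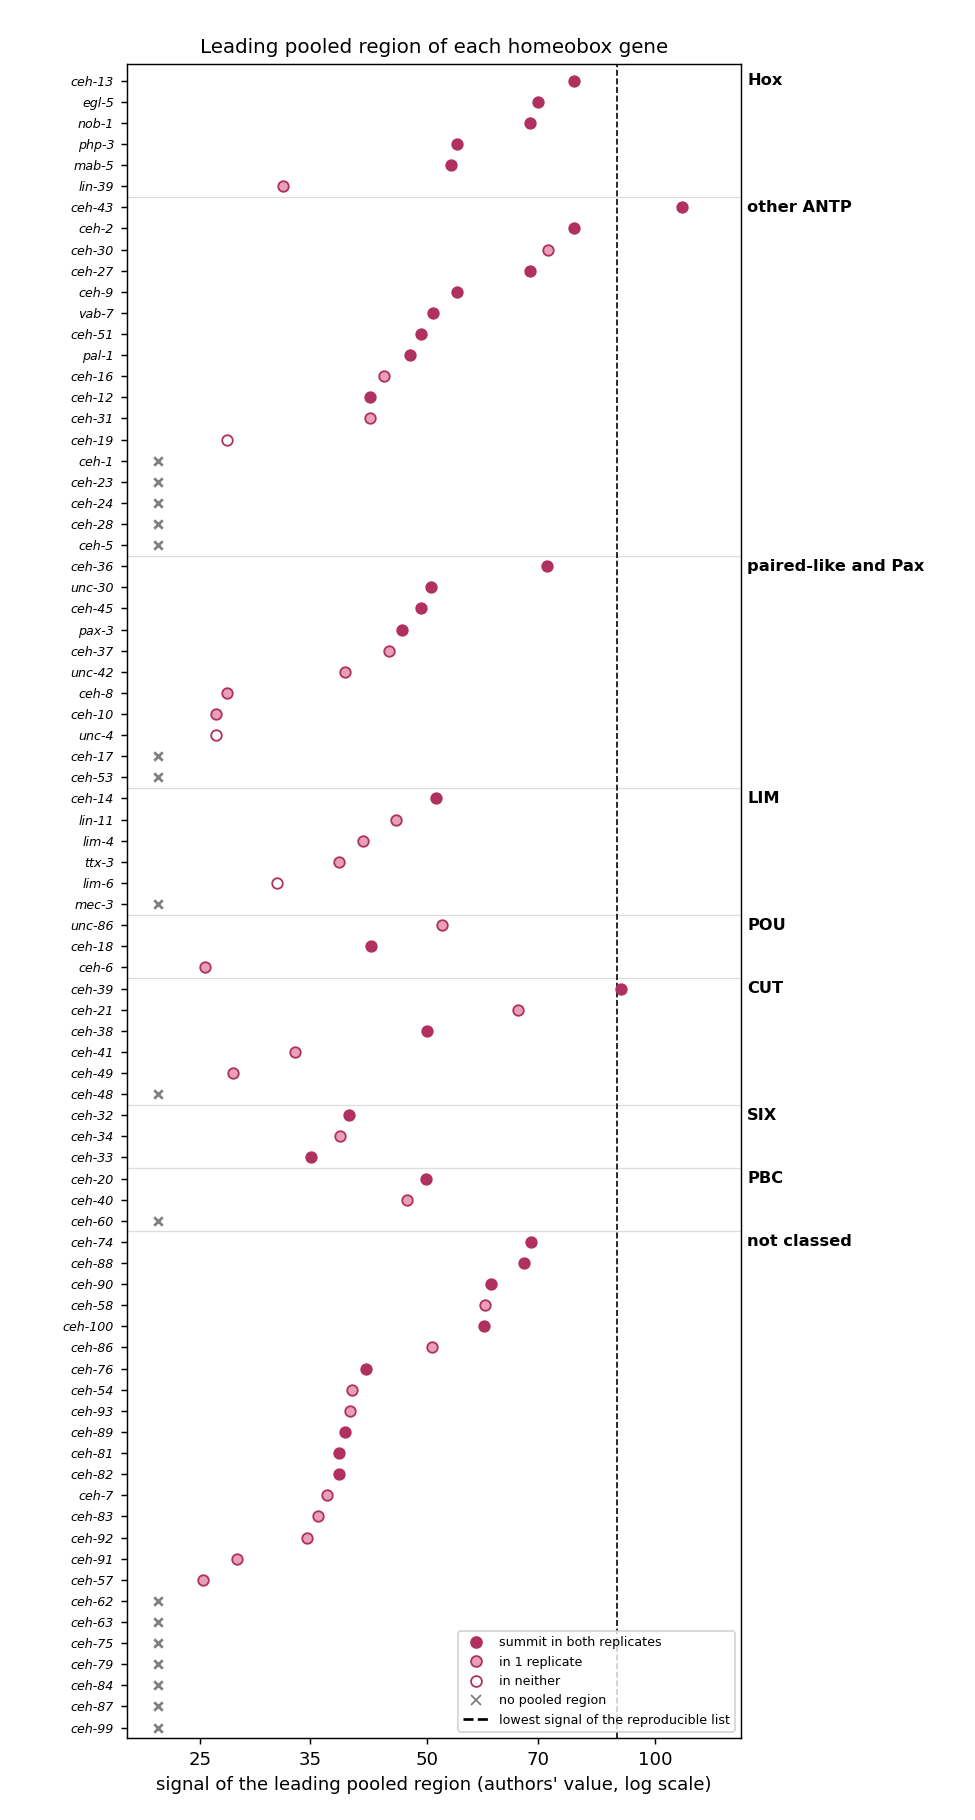
Signal of the strongest pooled region (horizontal axis, log scale, authors' value) of each of the 79 homeobox genes (down the page, by class); filled circles have a summit of both replicates within 100 bp, pale circles of 1, open circles of neither, and crosses, drawn at a fixed place at the left, are the 17 genes with no pooled region. Only ceh-43 and ceh-39 lie right of the dashed line at 89.1.

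Over the 62 genes with a pooled region, the leading signal ran from 25.2 to 109 with a median of 44.9, and over all 13101 protein-coding nuclear genes with one the median was 41.97. The leading region was in the top 25% of the pooled list for 31 of the 62 and had a summit of both replicates for 32. Among the 15 genes with the highest leading signals, 12 had summits of both replicates and 5 had a non-coding start within 500 bp of the summit. These counts were not made over all genes, and a leading region is by choice the strongest at its gene. They therefore show no excess at homeobox genes. No region was present in any list at 12 genes: ceh-1, ceh-17, ceh-23, ceh-24, ceh-28, ceh-53, ceh-60, ceh-63, ceh-75, ceh-79, ceh-84 and ceh-87. The further 5 without a pooled region, ceh-5, ceh-48, ceh-62, ceh-99 and mec-3, had 1 or 2 regions in 1 replicate. The share of all genes absent from every list was not computed. A pooled region was absent at 17 of the 79 homeobox genes and at 6872 of all 19973 genes. All of the 12 but ceh-53 and ceh-60 had targets under 5 kb, where 58.4% of all genes had a pooled region. By chromosome, homeobox genes on III were the densest, at 0.435 pooled regions per kb against 0.335 for all genes there, and 15 of 16 had one, against 78.1% of all genes there, the highest such share of any chromosome. All 6 Hox genes lie on III and are part of that value. On X, which holds 21 homeobox genes, the values were 0.311 and 0.262 per kb, and on V 0.315 and 0.207. They were 0.319 and 0.323 on I, 0.250 and 0.301 on II, and 0.254 and 0.253 on IV. On IV 3 of 6 homeobox genes had a pooled region, against 63.6% of all genes there.

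Counted as pairs of a gene and a pooled region, the homeobox genes had 153. Of these, 45, or 29.4%, had summits of both replicates, 31 of replicate 1 alone, 56 of replicate 2 alone and 21 of neither, and for all genes the share with both was 26.8%. Across the 44 distinct homeobox regions found in both replicates, the ranks in the 2 replicates had a Spearman rho of 0.256, and across all 6864 such nuclear regions rho was 0.454. These are descriptions across regions of the same 2 libraries. The median place in the pooled list was 45.2% from the top for homeobox pairs and 49.5% for all. The homeobox regions thus lay near the middle of the permissive list.

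Homeobox regions lay mostly inside the genes, and a larger share than for all genes was within 500 bp of the gene's own 5' end. Of the 153 pairs, 96, or 62.7%, were inside the gene and 55, or 35.9%, upstream, against 54.5% and 39.1% for all genes. They comprised 54 in introns, 30 in coding exons, 7 in 5' UTRs and 5 in 3' UTRs. The summit was within 500 bp of the 5' end in 32.7%, against 22.6%. The member's own 5' end was the nearest protein-coding one in 87.6%, against 63.04% for all genes. In the first 500 bp inside the gene the share was 16.99% against 9.19%, and 4000 bp or more inside it was 9.80% against 18.3%. These shares were not adjusted for gene length, which sets how much of the target lies inside the gene. Per kb, homeobox genes had 0.348 pooled regions upstream and 0.323 over the whole target. All genes had 0.302 and 0.275. A non-coding start was nearer than the gene's own in 48 pairs, or 31.4%, against 30.4% for all genes. Those starts were of ncRNA genes in 39, piRNA genes in 6, tRNA genes in 2 and a pseudogene in 1.

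**Figure D4:**
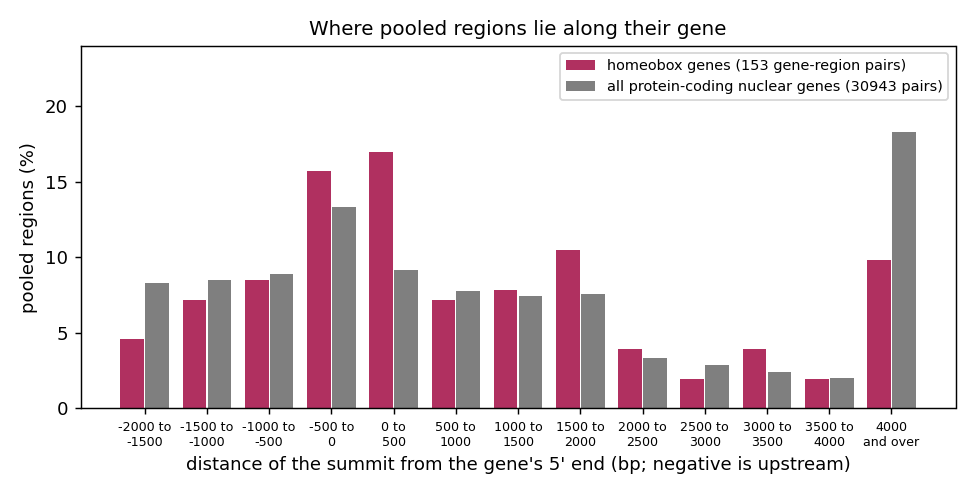
Percentage of pooled regions (vertical axis) by distance of the summit from the 5' end of the gene (horizontal axis, bins of 500 bp, negative is upstream) for the 153 pairs of homeobox genes and the 30943 pairs of all protein-coding genes. The bin from 0 to 500 bp inside the gene held 16.99% against 9.19%.

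Set beside other families of transcription factors, the homeobox genes had a pooled region more often than the nuclear hormone receptors (genes named nhr-), at 78.5% against 144 of 269, or 53.5%. With summits of both replicates the shares were 43.04% and 15.6%. In the reproducible list they were 2.53% for homeobox genes and 2.23% for the nhr- genes. Of 25 basic helix-loop-helix genes named hlh-, 17, or 68%, had a pooled region, 20% had one with both replicates, and 0 had a reproducible one, which allows a share of up to 12%. Of 19 T-box genes named tbx-, 13, or 68.4%, had a pooled region, 26.3% had one with both replicates, and 1 had a reproducible one. Over all genes these shares were 65.6% for a pooled region, 29.7% with both replicates and 4.8% for a reproducible one. The median target was 5.25 kb for homeobox, 4.31 kb for nhr- and 4.001 kb for hlh- and tbx- genes. Per kb these 4 families had 0.323, 0.208, 0.315 and 0.322 pooled regions. With summits of both replicates the values were 0.0949, 0.0360, 0.108 and 0.0805, and 1 hlh- gene held 8 of the 14 hlh- regions. Over all genes the 2 values per kb were 0.275 and 0.0735. Among these 4 families the homeobox genes thus stood apart per kb from the nhr- genes only. These differences were not tested.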

How the data were processed

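The data were peak lists of ChIP-seq for FKH-6-GFP in 2 biological replicates of 1 group. Per the deposited descriptions, the authors called regions for each replicate and for both replicates pooled, and thresholded the pooled list by the irreproducible discovery rate. Per the labels, control experiments exist; they were not analysed here. The sources used here do not give the aligner, peak caller or threshold. Signal values (column 7) are as deposited by the authors, on an unstated scale. The −log10 q-values (column 9) are as deposited too. The ce10 lists were not used. There were 0 columns of other samples.

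Genes were those of Ensembl release 115 on WBcel235, which is ce11, and sequences were read from the RefSeq copy of that genome. Replicates matched when summits were within 100 bp, and motifs were searched on both strands within 50 bp of the summit, in all pooled regions and not the reproducible ones alone. Intervals are 95% Wilson intervals, and where a count was 0 the upper limit is 3 counts of the total; both cover counting error only. Region depth is unknown. No test was run, since there is 1 group. The members, classes, motifs and lists were chosen with earlier results of these data known. Genes named in the text were those with a reproducible region, the 15 with the highest leading signals, the 5 with the most pooled regions (8 with ties), those without a region and the Hox genes; others were named after their values were seen, so that each class is described. On simulated data, 30 of 30 planted summits and 500 of 500 summit pairs were handled as planted. Python 3.11.15, NumPy 2.4.6, SciPy 1.17.1, statsmodels 0.14.6 and Matplotlib 3.10.9 were used. Alternatives were other distances, stricter lists, nearest-start assignment, other matching distances and each replicate alone.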

Additional observations from a re-analysis of the deposited data

How the results depend on the processing

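The number of homeobox genes with a reproducible region was 2, and over the alternatives it was never above 3. It was 1 with 500 bp in place of 2000 bp, where 3.12% of all genes had one, and 0 above the list's median signal, where 2.47% did. Leaving out a replicate, with its 767 highest-signal regions in place of the reproducible list, gave 0 without replicate 1 and 1 without replicate 2; the remaining one was ceh-43. With 5000 bp, ceh-21 was added, by the same region that already counted for ceh-39. Both reproducible regions lay nearer to a non-coding start than to the homeobox gene, against 41.9% over all genes, and 1 did when tRNA, snoRNA, snRNA, miRNA and rRNA genes alone counted. The 62 genes with a pooled region became 2 with −log10 q from 2 up and 34 with summits of both replicates, and ranged from 55 to 64 without a replicate. The pooled regions per kb were 0.00422 with that same q limit, against 0.0125 for all genes, and from 0.224 to 0.293 without a replicate. The share of pairs with both replicates was 20.3% with summits within 50 bp, 42.5% within 200 bp and 56.9% by overlap of the intervals, against 17.6%, 36.9% and 48.6% for all genes. The median place in the list ranged from 41.4% to 45.3% without a replicate. In all, 22 of 35 alternatives stayed within 1.5 times the reported value for counts, or within the spread of the replicates or the 95% interval for other values. The cause of the other changes was not tested, beyond the fewer regions that stricter lists hold. No paired analysis was possible because there is only 1 group. Unknown depth and 2 replicates limit all values.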

Other observations

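A further 21 homeobox genes with other names were examined in the same way. None had a reproducible region, which allows a share of up to 14.3%, all 21 had a pooled region, and 14 had one with summits of both replicates. Over all genes the shares were 4.8%, 65.6% and 29.7%. The median target of the 21 genes was 6.175 kb. Per kb they had 0.503 pooled regions, against 0.323 for the 79 genes and 0.275 for all genes. With summits of both replicates the values were 0.145, 0.0949 and 0.0735. The strongest region of the 21 genes was in an intron of pros-1, the Prospero homologue, with a signal of 80.8, rank 1053 in the pooled list, 921 in replicate 1 and 1829 in replicate 2. That summit lay at the start of the tRNA gene WBGene00023107. dve-1, a factor of the mitochondrial stress response, had 6 pooled regions and a leading signal of 69.9, with ranks of 2925 in replicate 1 and 2152 in replicate 2. The long gene zfh-2 had 23 pooled regions, 7 of them with both replicates, and unc-62, the Meis-type partner of PBC proteins, had 13, 2 of them with both. Their target stretches were 33.4 kb and 15.99 kb, against a median of 5.25 kb for the 79 genes. zag-1, a regulator of neuron differentiation, had 8 in 7.73 kb, 4 of them with both replicates.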
